A study of Mus musculus with 9 samples.

Results

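In mouse brain, 10 genes that microglia switch on around amyloid plaques were followed across 9 arrays: Trem2, Tyrobp, Clec7a, Axl, Itgax, Cd9, Gpnmb, Cst7, Ccl3 and Ccl6. They are 10 of the 19938 genes measured, all 10 were found by symbol, and each is read by 1 probe set. The genes were selected on earlier results of these same arrays, in which several stood higher in model than in control arrays, so their group differences are given as a description and not as a test. The HPYD group was APP/PS1 transgenic mice given the polypeptide HPYD, the model group was APP/PS1 transgenic mice given saline, and the control group was wild-type C57/6J mice given saline. HPYD is a peptide designed to hinder the stacking of amyloid-β into β-sheets, and it was given through the nose at 33 mg/mL and 5 μL per day for 30 days. The APP/PS1 mice were 8 months old when bought and had a C57/6J background. The sources used here do not name their line or the promoter of its transgenes. Each group had 3 arrays of brain RNA, called HPYD 1 to 3, model 1 to 3 and control 1 to 3 after their labels. It is not stated whether the 3 arrays of a group were 3 mice. Any p-value therefore reflects spread between arrays, and that spread may be technical.

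Microglia are the resident macrophages of the brain. Around amyloid plaques they lower their resting program and take up another, for which the lipid receptor TREM2 and its signalling adaptor DAP12, the product of Tyrobp, are needed. The genes of that program encode surface receptors, lysosomal proteins and chemokines.

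The array labelled HPYD 3 went against its label. Prnp, the prion protein gene, whose promoter drives the transgenes of 1 common APP/PS1 strain, was 12.54 and 12.47 in HPYD 1 and 2 and 11.52 in the array labelled HPYD 3, on a log2 scale. It was between 12.42 and 12.55 in the model arrays and between 11.76 and 11.81 in the control arrays. Xist, an RNA of the silenced X chromosome in females, was 11.33, 11.47 and 5.22 in the HPYD arrays, between 11.18 and 11.78 in the model arrays and between 5.20 and 5.69 in the control arrays. For both genes the array labelled HPYD 3 lay with or below the control arrays and far from the other arrays of its group. The Y-linked gene Uty was 4.25, 3.85 and 8.20 in the HPYD arrays, at most 3.92 in the model arrays and at least 7.97 in the control arrays. Genotype and sex therefore cannot be told apart in any comparison with the control group. Most results that rest on the array labelled HPYD 3 are given with and without it. Where only 1 standard error is given for model against control, it comes from the fit over all 9 arrays.

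Stretches of 4 of the promoters are shown because they carry short motifs of factors that act in macrophages, PU.1 (GAGGAA) and AP-1 (TGANTCA). Each runs from 130 bases before the RefSeq start to 20 bases from it (GRCm38.p6), in the gene's own direction, and capitals mark a match to either motif on either strand.
Trem2, chr17:48346271-48346420, plus strand: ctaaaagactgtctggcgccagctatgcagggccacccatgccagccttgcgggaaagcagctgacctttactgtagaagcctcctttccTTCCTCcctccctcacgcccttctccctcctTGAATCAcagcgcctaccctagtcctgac
Clec7a, chr6:129472760-129472909, minus strand: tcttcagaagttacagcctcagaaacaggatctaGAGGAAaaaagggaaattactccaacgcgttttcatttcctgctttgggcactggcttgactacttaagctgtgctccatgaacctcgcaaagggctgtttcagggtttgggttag
Gpnmb, chr6:49036388-49036537, plus strand: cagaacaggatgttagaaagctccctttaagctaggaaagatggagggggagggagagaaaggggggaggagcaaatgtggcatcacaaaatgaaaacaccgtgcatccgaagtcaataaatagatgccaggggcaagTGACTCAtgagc
Cst7, chr2:150570285-150570434, plus strand: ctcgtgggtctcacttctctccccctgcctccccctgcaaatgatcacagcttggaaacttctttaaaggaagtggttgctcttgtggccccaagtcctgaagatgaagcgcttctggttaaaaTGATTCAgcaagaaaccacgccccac

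RefSeq windows of 300 bases were at hand for 9 of the 10 genes, and Tyrobp was not analysed here. The PU.1 motif was found in 4 of the 9 genes, Trem2, Clec7a, Axl and Ccl3, and 28.3% of 32851 windows of all genes hold it. The AP-1 motif was found in 4 of the 9, Trem2, Gpnmb, Cst7 and Itgax, and 7.81% of all windows hold it. In Trem2 the PU.1 match begins 40 bases before the start and the AP-1 match 9 bases before it. The AP-1 match of Cst7 begins 6 bases before the start and overlaps a match to the C/EBP motif (TTGCNNAA), which 10.8% of windows hold and which Trem2 also has. CACGTG, the motif of MITF and the TFE factors that drive lysosomal genes, was found in 0 of the 9 and in 7.15% of windows. The NF-kB motif (GGG and TTTCC, 2 bases apart) was found in Cd9 and in 1.63% of windows, and the IRF motif (GAAA again after 2 bases) in 0 of the 9 and in 3.44%. All motifs were searched on both strands. These matches are a description of the letters and not of binding.

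In all 3 model arrays, every one of the 10 genes lay above every control array, and the same was true of HPYD 1 and 2. Across all genes, 4.83% had every model array above every control array and 7.32% had HPYD 1 and 2 above every control array. Because the genes were selected on the first of these contrasts, nothing is read from these counts. Taken over the 10 genes, the median distance to the control mean was 1.31 and 1.32 in HPYD 1 and 2, -0.04 in the array labelled HPYD 3, and 1.08, 0.77 and 1.16 in model 1 to 3. These medians correspond to 2.48-fold, 2.49-fold, 0.973-fold, 2.11-fold, 1.71-fold and 2.23-fold the control mean. The size differed widely between genes, between 0.17 for Axl and 3.14 for Cst7 on the log2 scale for model against control. In RNA from brain tissue, a larger number of cells of a type and more RNA per cell cannot be told apart.

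**Figure D1:**
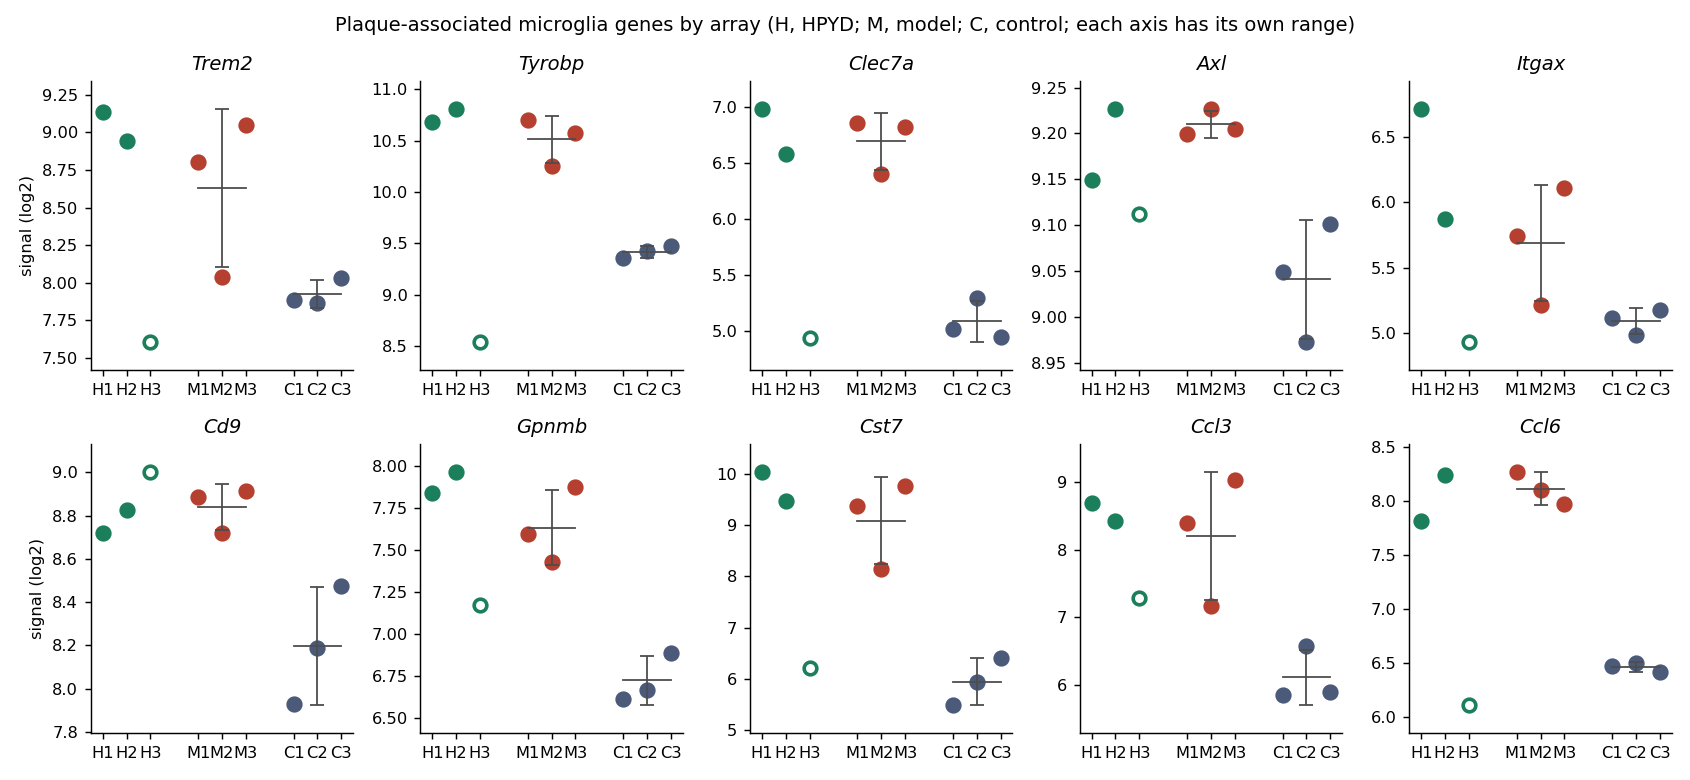
Signal (log2, vertical axis, a range of its own in each panel) of the 10 genes on each array, with HPYD arrays (H) on the left, model arrays (M) in the middle and control arrays (C) on the right. Points are arrays, the open point is the array labelled HPYD 3, and lines with bars are the mean ± SD of the 3 model and 3 control arrays. Filled HPYD points lie above all control points in every panel, while the open point lies below all control points for Clec7a, Ccl6, Itgax, Tyrobp and Trem2.

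Among the receptors, Trem2 (chr17:48346401-48352276 in GRCm38.p6), which binds lipids, lipoproteins and amyloid-β, was 9.14 and 8.94 in HPYD 1 and 2 and 7.61 in the array labelled HPYD 3. It was 8.80, 8.04 and 9.05 in model 1 to 3 and 7.89, 7.86 and 8.03 in control 1 to 3. Model 2 was only 0.0058 above the highest control array, whereas model 1 and 3 and HPYD 1 and 2 were well clear of them. Model over control, the log2 fold change was 0.70, with a standard error of 0.40 in the fit over all arrays and 0.24 without the array labelled HPYD 3. It was 1.00 without model 2 and 0.49 without model 3.

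Tyrobp (chr7:30413782-30417582) encodes DAP12, the membrane adaptor through which TREM2 signals. It was 10.68 and 10.81 in HPYD 1 and 2 and 8.54 in the array labelled HPYD 3, against 10.70, 10.26 and 10.58 in model 1 to 3 and 9.35, 9.42 and 9.47 in control 1 to 3. The control arrays spanned only 0.12, and the array labelled HPYD 3 lay 0.82 below the lowest of them. Its model-to-control log2 fold change was 1.09, or 2.14-fold (standard error 0.53 with and 0.12 without that array). Unlike Trem2, Tyrobp was clear of the control arrays in all model arrays, which lay between 0.84 and 1.28 above the control mean.

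Clec7a (chr6:129461591-129472785), the gene of dectin-1, a receptor for β-glucans of fungi, was 6.98 and 6.58 in HPYD 1 and 2 and 4.93 in the array labelled HPYD 3. It was 6.86, 6.40 and 6.82 in model 1 to 3 and 5.01, 5.29 and 4.94 in control 1 to 3. The model-to-control log2 fold change was 1.61 (standard error 0.46 with and 0.17 without the array labelled HPYD 3), which is 3.05-fold. The gap between the lowest model array and the highest control array was 1.10, larger than the range of the model arrays, 0.46, and that of the control arrays, 0.35.

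Axl (chr7:25756500-25788924), a receptor tyrosine kinase for ligands that bind dying cells, was 9.15 and 9.23 in HPYD 1 and 2 and 9.11 in the array labelled HPYD 3. It was 9.20, 9.23 and 9.20 in model 1 to 3 and 9.05, 8.97 and 9.10 in control 1 to 3. No model array reached down to a control array, yet the model-to-control log2 fold change was only 0.17 (standard error 0.06), or 1.12-fold. The range of the control arrays was 0.13.

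Of the other surface proteins, Itgax (chr7:128129526-128150657), the integrin chain CD11c, was 6.71 and 5.87 in HPYD 1 and 2 and 4.93 in the array labelled HPYD 3. It was 5.74, 5.22 and 6.11 in model 1 to 3 and 5.12, 4.98 and 5.18 in control 1 to 3. Model 2 was 0.04 above the highest control array, and HPYD 1 was the highest array of all. Model over control, the log2 fold change was 0.59 (standard error 0.41 with and 0.27 without the array labelled HPYD 3), 0.83 without model 2 and 0.39 without model 3.

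Cd9 (chr6:125460266-125494760) encodes a tetraspanin that organises membrane proteins and is made by many brain cells. It was 8.72 and 8.83 in HPYD 1 and 2 and 9.003 in the array labelled HPYD 3, against 8.88, 8.72 and 8.91 in model 1 to 3 and 7.93, 8.19 and 8.47 in control 1 to 3. Here the array labelled HPYD 3 was the highest of all 9. Its model-to-control log2 fold change was 0.64 (standard error 0.14), and the control arrays spanned 0.54, more than the model arrays, at 0.20.

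Gpnmb (chr6:49036518-49058182), a glycoprotein of lysosomes and the surface of macrophages, was 7.84 and 7.97 in HPYD 1 and 2 and 7.18 in the array labelled HPYD 3. It was 7.60, 7.43 and 7.88 in model 1 to 3 and 6.61, 6.67 and 6.89 in control 1 to 3. The array labelled HPYD 3 lay between the groups, 0.28 above the highest control array and below every model array. The model-to-control log2 fold change was 0.91 (standard error 0.21 with and 0.13 without that array), or 1.88-fold.

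Cst7 (chr2:150570415-150578944) encodes cystatin F, an inhibitor of lysosomal cysteine proteases. Its signal was 10.04 and 9.46 in HPYD 1 and 2 and 6.21 in the array labelled HPYD 3, against 9.36, 8.14 and 9.75 in model 1 to 3 and 5.50, 5.95 and 6.40 in control 1 to 3. The array labelled HPYD 3 lay within the control arrays, and HPYD 1 and 2 and all model arrays were at least 1.73 above them. Relative to the control mean, Cst7 was 17.0-fold and 11.4-fold in HPYD 1 and 2, 1.20-fold in the array labelled HPYD 3, and 10.7-fold, 4.56-fold and 13.98-fold in model 1 to 3. Model over control, the log2 fold change was 3.14, with a standard error of 0.92 with and 0.43 without the array labelled HPYD 3.

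The chemokine genes Ccl3 (chr11:83647843-83649378) and Ccl6 (chr11:83587886-83593087) lie on the same chromosome. Ccl3, the gene of MIP-1α, which attracts leukocytes, was 8.69 and 8.43 in HPYD 1 and 2 and 7.29 in the array labelled HPYD 3. It was 8.40, 7.17 and 9.04 in model 1 to 3 and 5.85, 6.58 and 5.89 in control 1 to 3. Model 2 stood 1.56 below the mean of model 1 and 3, and the array labelled HPYD 3 was 0.71 above the highest control array. Its model-to-control log2 fold change was 2.10 (standard error 0.52), or 4.28-fold, and 2.62 without model 2.

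Ccl6, a rodent chemokine that binds CCR1, was 7.82 and 8.24 in HPYD 1 and 2 and 6.11 in the array labelled HPYD 3. It was 8.28, 8.10 and 7.97 in model 1 to 3 and 6.47, 6.51 and 6.42 in control 1 to 3. The model arrays spanned 0.30 and the control arrays 0.09, while the model-to-control log2 fold change was 1.65 (standard error 0.46 with and 0.12 without the array labelled HPYD 3). Ccl6 and Axl were the genes of the 10 for which model 2 was not the lowest model array.

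The fit over all 9 arrays with limma called 0 of the 10 genes, and 0% of all genes, at a Benjamini-Hochberg adjusted p under 0.05 in model against control, in HPYD against model and in HPYD against control. At an unadjusted p under 0.05, 7 of the 10 were higher in model than in control arrays, against 2.87% of all genes, and these excluded Itgax, Tyrobp and Trem2. For HPYD against control, 5 of the 10 were higher at that level (2.00% of all genes). Without the array labelled HPYD 3, Ccl6 was called for model against control after adjustment (0.0351% of all genes), and Ccl6 and Tyrobp for HPYD against control (0.0401%). Those shares are 7 and 8 genes. In both comparisons they included 2 higher genes, Prnp and Xist, and 3 lower Y-linked genes, Uty, Kdm5d and Eif2s3y, all used to check the labels. At an unadjusted p under 0.05 that fit had 9 of the 10 higher in the model group (3.05% of all genes) and 9 of the 10 higher in the HPYD group (1.53%), each against the control group. The exceptions were Itgax in the first and Axl in the second. The genes were selected on these arrays, so these counts describe how far the fits separate the groups and are no evidence for the genes.

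**Figure D2:**
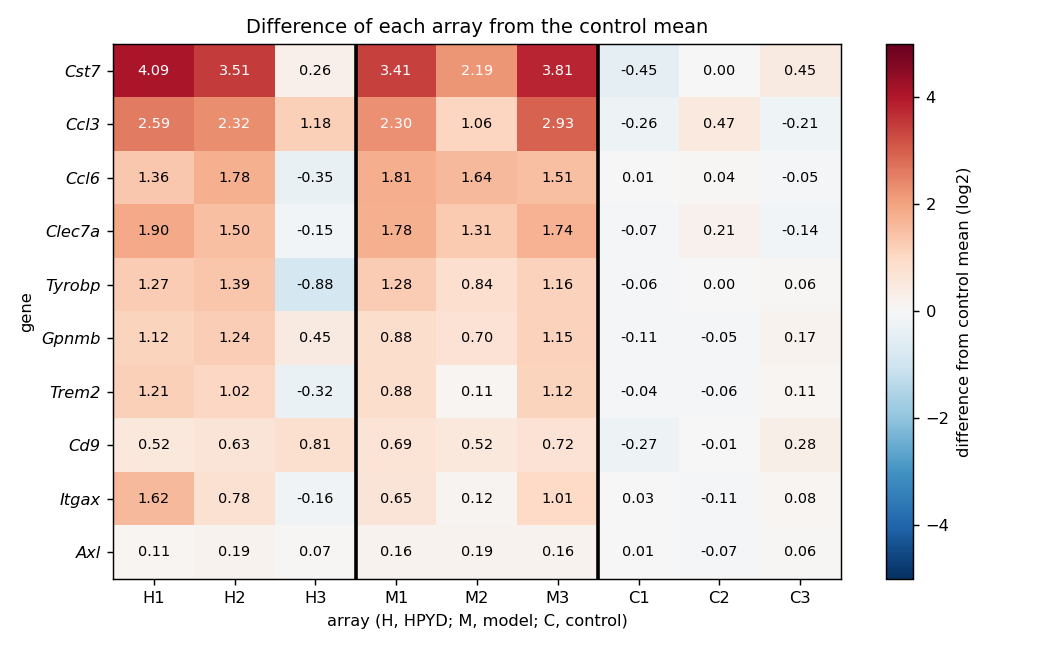
Difference (log2, colour and printed value) of each array from the mean of the 3 control arrays for the 10 genes (rows, ordered by the model group's mean difference), with HPYD arrays (H) left, model arrays (M) in the middle and control arrays (C) right. Cst7 and Ccl3 head the rows with up to 4.09 and 2.93, and H3, the array labelled HPYD 3, mixes values above and below 0.

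Set against all 19938 genes on the same array, the 10 genes stood near the top in some arrays and not in others. When genes were ordered by their difference from the control mean, 9 of the 10 were among the first 200 in HPYD 1, 7 in HPYD 2 and 1 in the array labelled HPYD 3. The model arrays held 5, 1 and 9 of the 10 among their first 200. Cst7 ranked 2 in HPYD 1, 6 in HPYD 2, 27 in model 1, 134 in model 2 and 2 in model 3. Ccl3 ranked 3 in HPYD 1 and 4 in model 3, and the best rank of Axl on any array was 1452. The genes were selected on the model-against-control contrast in these arrays, so the ranks are a description only.

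The treatment question, whether these genes differed between HPYD-treated and saline-treated APP/PS1 mice, rests on HPYD 1 and 2 and on how the array labelled HPYD 3 is taken. With all 3 arrays, the median log2 fold change of the 10 genes for HPYD against model was -0.07, and it ranged between -0.73 for Ccl6 and 0.15 for Itgax. Without the array labelled HPYD 3 the median was 0.25, and values ranged between -0.09 for Ccl6 and 0.66 for Cst7. At an unadjusted p under 0.05, 0 of the 10 genes differed with the array (1.97% of all genes) and 0 without it (1.33%). The largest differences without it were 0.66 for Cst7 (standard error 0.49), 0.60 for Itgax (0.30) and 0.41 for Trem2 (0.27), while Cd9, at -0.07, and Axl, at -0.02, were smaller than their standard errors of 0.15 and 0.06. A missed threshold here does not show that the groups were alike, since the standard errors were as large as many of the differences.

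Array by array, HPYD 1 was above every model array for Cst7, Clec7a, Itgax and Trem2, 4 of the 10 against 17.6% of all genes. HPYD 2 was above every model array for Gpnmb, Tyrobp and Axl, 3 of the 10 against 24.4% of all genes. For Axl this was a near tie, at 9.2266 in HPYD 2 and 9.2265 in model 2. HPYD 1 and 2 were together above every model array for 0 of the 10 genes, against 4.30% of all genes, and together below every model array for 0 of the 10, against 3.73%. The clearest single value was Itgax in HPYD 1, 1.03 above the model mean, where HPYD 2 was 0.18 above it. The array labelled HPYD 3 was below every model array for 8 of the 10 genes, against 16.6% of all genes, the exceptions being Ccl3 and Cd9.

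**Figure D3:**
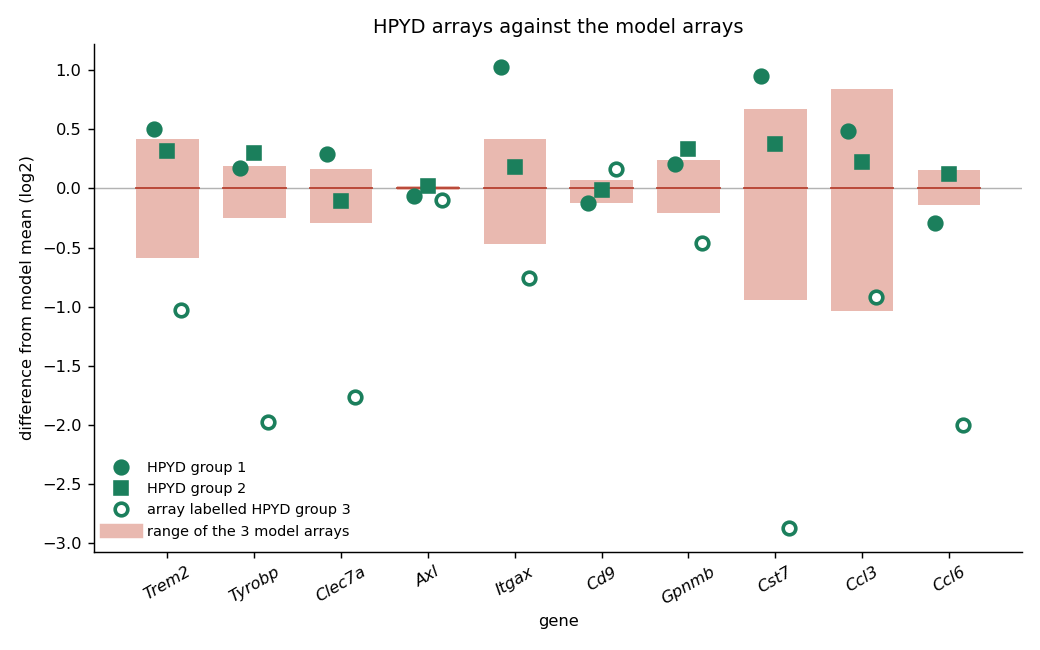
Difference of each HPYD array from the mean of the 3 model arrays (log2, vertical axis) for the 10 genes (horizontal axis), with circles for HPYD 1, squares for HPYD 2, open circles for the array labelled HPYD 3 and bands for the range of the 3 model arrays. Filled symbols lie within or near the bands, with Itgax in HPYD 1 at 1.03, while the open circles reach -2.88 for Cst7.

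The array labelled HPYD 3 did not simply take the level of the control arrays. It was above every control array for Ccl3, Gpnmb, Cd9 and Axl, and 39.6% of all genes were above every control array in it. It was below every control array for Clec7a, Ccl6, Itgax, Tyrobp and Trem2, and 27.5% of all genes were below every control array in it. The 4 and 5 of 10 are to be read beside those shares, and nothing is read from these counts. With so few control arrays, any single array falls outside their range in many genes. The depth of the shortfall differed, at 0.009 below the lowest control array for Clec7a and 0.82 for Tyrobp. Genes of resting microglia were low in it as well.

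Of 20 listed genes of resting microglia, among them Tmem119, P2ry12 and Cx3cr1, 19 were measured. Measured from the control mean, their median was 0.18 and 0.25 in HPYD 1 and 2 and -0.57 in the array labelled HPYD 3, and 0.20, -0.30 and 0.30 in model 1 to 3. In that array 16 of the 19 were below every control array, against 27.5% of all genes. In model 2 and in the array labelled HPYD 3, 3 of the 19 were above the control mean. In each of HPYD 1 and 2 and model 1 and 3, 18 of the 19 were. Of all 19938 genes, between 8806 and 11241 were above it in each HPYD and model array. Model 2, the lowest model array for 8 of the 10 plaque-associated genes, was thus low for the resting genes as well. Median neuron marker differences were -0.22 in the array labelled HPYD 3 and -0.17 in model 2, against values between -0.03 and 0.00 in HPYD 1 and 2 and model 1 and 3. The part of these shifts in the levels of the 10 genes was not tested. For model against control the median over the 19 genes was 0.06. At an unadjusted p under 0.05, 1 of 19 was higher, against 2.87% of all genes. This was Golm1, a Golgi membrane protein, with a log2 fold change of 0.27 (standard error 0.11).

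Beyond the 10 genes, 34 of 37 listed names of the plaque-associated program were measured. Their median model-to-control log2 fold change was 0.36, beside 1.00 for the 10 genes and -0.01 for all genes. Of the 34, 31 had the higher mean in model arrays, against 8980 of all 19938 genes. Every model array was above every control array for 20 of them, against 4.83% of all genes. At an unadjusted p under 0.05, 19 were higher and 0 lower, where 2.87% of all genes were higher. Without the array labelled HPYD 3 it was 22 and 0, where 3.05% of all genes were higher. In the fit over all arrays 0 passed after adjustment. Like the 10, this list was drawn up with earlier results of these arrays known. By array, their median stood above the control mean by 0.25 and 0.33 in HPYD 1 and 2, 0.05 in the array labelled HPYD 3, and 0.48, 0.41 and 0.20 in model 1 to 3.

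Cd52, a small surface glycoprotein of leukocytes, had the largest difference among those named from this list. It was 7.54, 8.12 and 6.01 in the HPYD arrays, 8.33, 8.37 and 7.78 in the model arrays and 6.15, 6.34 and 6.45 in the control arrays. Its model-to-control log2 fold change was 1.85 (standard error 0.47 with and 0.21 without the array labelled HPYD 3). Genes of the lysosome and of antigen presentation had smaller differences, with log2 fold changes of 0.20 for Ctsl (cathepsin L), 0.27 for Npc2 (a cholesterol carrier) and 0.39 for B2m (the light chain of MHC class I). None of these passed after adjustment. Ctsl and Npc2, unlike Cd52, were above every control array in the array labelled HPYD 3 also, by 0.27 and 0.17.

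Genes listed for TREM2, DAP12 and dectin-1 signalling were closer to the control level. All 20 listed genes were measured, and the median model-to-control log2 fold change was 0.22. The mean was higher in model arrays for 17, against 8980 of all 19938 genes. At an unadjusted p under 0.05, 4 were higher and 0 lower, where 2.87% of all genes were higher. They were Treml2, a TREM-like receptor, Vav1, a signalling protein of blood cells, Lcp2, the adaptor SLP-76, and Ptpn6, the phosphatase SHP-1. Without the array labelled HPYD 3, 8 were higher and 0 lower, where 3.05% of all genes were higher. Lcp2 was 7.71, 8.13 and 7.33 in the HPYD arrays, 8.42, 8.20 and 7.70 in the model arrays and 7.62, 7.44 and 7.52 in the control arrays. All 4 genes had their 3 highest values in model 1, model 2 and HPYD 2, the arrays with high granulocyte genes, and the part of granulocyte RNA in these values was not tested.

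Among 18 measured binding partners of the 10 proteins, the median model-to-control log2 fold change was 0.12. At an unadjusted p under 0.05, 2 were higher and 0 lower, where 2.87% of all genes were higher. Without the array labelled HPYD 3 it was 4 and 0, where 3.05% of all genes were higher. Itgb2, the integrin chain that pairs with CD11c, was 7.62, 8.27 and 6.93 in the HPYD arrays, 8.33, 8.54 and 7.71 in the model arrays and 7.15, 7.17 and 7.25 in the control arrays. Its log2 fold change was 1.01 (standard error 0.33 with and 0.24 without the array labelled HPYD 3). That is a mean over model 1 and 2, where granulocyte genes were high, and model 3, which was 0.47 above the highest control array. The part of granulocyte RNA in it was not tested. Lgmn, the lysosomal protease legumain, had a log2 fold change of 0.25 (standard error 0.07).

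Granulocyte genes were high in 3 arrays. Measured from the control mean, the median of 18 such genes was -0.55, 2.54 and -0.09 in the HPYD arrays and 3.21, 3.54 and -0.38 in model 1 to 3, and all 18 were above the control mean in model 1, model 2 and HPYD 2. For 15 skeletal muscle genes the same values were -0.10, 0.68 and 0.04 in the HPYD arrays and 2.11, 3.79 and 0.01 in the model arrays. Of 16 genes of monocytes, border macrophages and dendritic cells the median lay between -0.08 and 0.22 in all HPYD and model arrays. The median difference of the 10 genes was 1.16 in model 3 and 1.31 in HPYD 1, where the granulocyte genes were below the control mean. That of the other 34 genes of the program was 0.48, 0.41 and 0.33 in model 1, model 2 and HPYD 2, against 0.20 and 0.25 in model 3 and HPYD 1. Cd52 and Ccl6 had their 3 highest values in the 3 arrays with high granulocyte genes, and Ccl6 was 1.51 above the control mean in model 3. With the granulocyte level as a covariate, the model-to-control log2 fold change was 1.34 for Ccl6, against 1.65 without it. It was also lower for Tyrobp (0.92 against 1.09), Axl (0.14 against 0.17) and Clec7a (1.60 against 1.61). It was higher for Cst7 (3.31 against 3.14), Ccl3 (2.48 against 2.10) and Itgax (0.87 against 0.59). The same held for Trem2 (0.84 against 0.70), Gpnmb (0.95 against 0.91) and Cd9 (0.68 against 0.64). The part of granulocyte RNA in the levels of these genes was not tested beyond that fit.

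**Figure D4:**
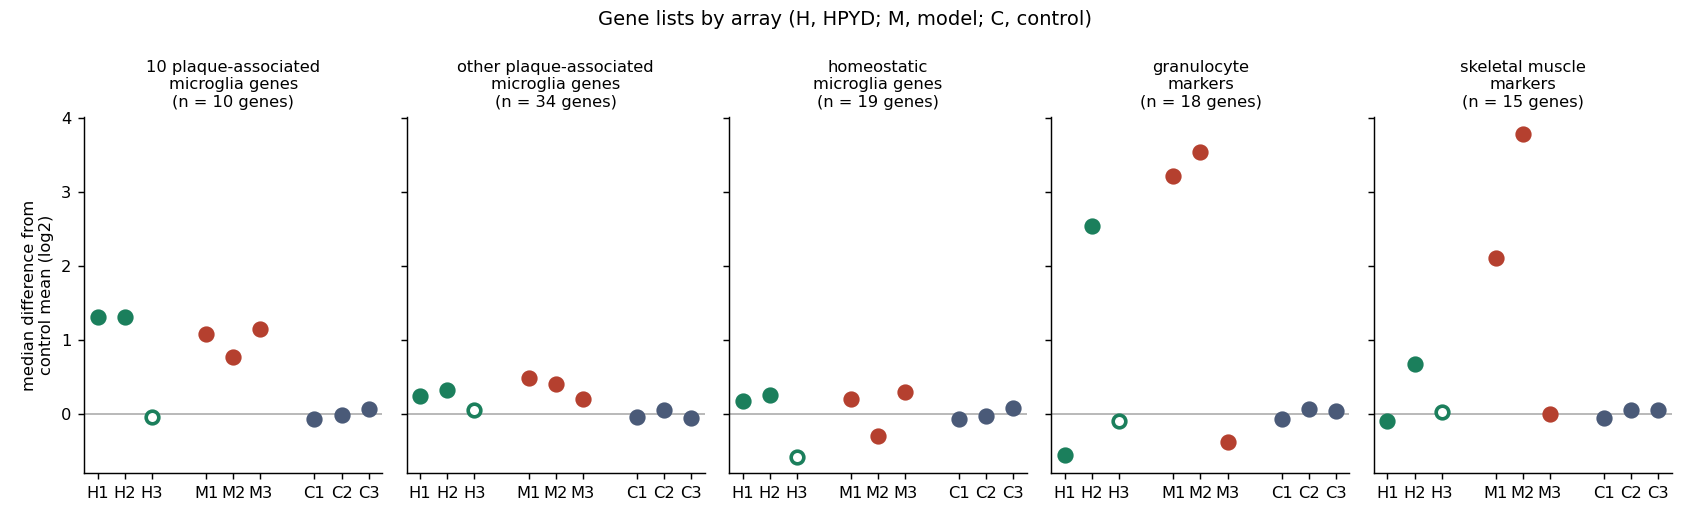
Median difference from the mean of the control arrays (log2, vertical axis) of 5 gene lists on each array, with HPYD arrays (H) on the left, model arrays (M) in the middle and control arrays (C) on the right, and the array labelled HPYD 3 open. The 10 genes stay between 0.77 and 1.32 in the filled HPYD and model points, while granulocyte and muscle genes are raised in H2, M1 and M2.

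Within the 10, the profiles over the arrays were not equally alike. The Pearson correlation of each gene with the mean profile of the 10, itself included, was 1.00 for Cst7, 0.98 for Clec7a and 0.96 for Gpnmb. It was lowest for Axl, at 0.79, and Cd9, at 0.65 (n = 9 arrays). These correlations share the array labelled HPYD 3 and the contrast between APP/PS1 and control arrays. The profile averages unscaled log2 values, so genes that vary widely, such as Cst7, weigh most in it. Genes that vary little, such as Axl, weigh least, so the order is partly built in. Outside the 10, the genes most like that profile were Fcgr1, an Fc receptor for IgG, at 0.98, and Cd180, a TLR-like receptor, Ctsz, a lysosomal protease, C4b, a complement component, App and Ctsd, the protease cathepsin D, all at 0.97. Irf8, a transcription factor of microglia, and C3ar1, the receptor of the complement fragment C3a, followed at 0.96. App, a gene used to check the labels, was 12.98, 13.01 and 12.53 in the HPYD arrays. It was between 12.95 and 13.02 in the model arrays and between 12.56 and 12.62 in the control arrays. Xist, which follows sex, correlated at 0.95 with the same profile. Ctsz and Ctsd were on the list of other plaque-associated genes. The correlations describe likeness over arrays that form clusters and carry no test.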

How the data were processed

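Brain RNA of the 3 groups was hybridised to 9 GeneChip Mouse Gene 1.0 ST arrays. The authors deposited 1 table of log2 signals, 1 value per probe set and array, for 35556 probe sets. The submitters' processing notes name MAS5 with no version, and no source used here gives the normalization. An exact value was shared by 2 or more arrays in 41.2% of probe sets. Array medians lay between 6.69 and 6.82, and values were used as deposited. Extraction was with Trizol per the labels and with an RNeasy kit per the paper. The platform annotation gave 1 symbol for 21789 probe sets, several for 1621 and none here for 12146. A gene was represented by its probe set of highest mean, and each of the 10 genes had only 1.

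The 3 groups were fitted together with limma 3.58.1 in R 4.3.3, without a covariate (6 residual and 2.13 prior degrees of freedom), with the Benjamini-Hochberg adjustment over 19938 genes. The fit was run on simulated data with planted differences. The simulation held independent noise and no deviant array, so it checked the code and not how the fit handles these arrays. The genes, lists and naming rule were chosen with earlier results of these data known. Named are the 10 genes, up to 4 of each list (smallest p, or highest mean in a list without an unadjusted p under 0.05), the genes that check the labels, and the 8 with the most similar profile. Alternatives were other normalizations, gene filters, variance models, array weights, a granulocyte covariate, a replicate block, the methods' Student-Newman-Keuls test after one-way analysis of variance, and leaving out arrays. The fits without the 3 arrays with high granulocyte genes, with and without the array labelled HPYD 3, were added after seeing the data. The labels give no batch. The number of arrays limits the precision.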

Additional observations from a re-analysis of the deposited data

How the results depend on the processing

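Of 21 alternatives, many leave a fold unchanged by construction. Among the values that changed, the 10 genes kept the sign of their difference in 120 of 120 for model over control. They also did so in 120 of 120 for HPYD over control. Since all model arrays lay above all control arrays for each gene, leaving out or reweighting arrays could not reverse the model-over-control sign. The genes were also selected on that contrast, so its count is no evidence of stability. For HPYD over model, 71 of 84 negative and 20 of 36 positive values that changed kept their sign. Clec7a and Itgax were dropped by the filter on dim genes. The log2 values hold no background measure, so how far a dim gene stood above background is unknown.

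With 1 array left out, the median log2 fold change of model over control ranged between 0.93 and 1.12, that of HPYD over model between -0.48 and 0.25, and that of HPYD over control between 0.69 and 1.26. Genes called in those fits ranged between 0 and 7, 0 and 0, and 0 and 8, and called genes of the 10 between 0 and 1, 0 and 0, and 0 and 2. The highest counts came without the array labelled HPYD 3. With only the 2 groups compared, 5 genes, 1 of the 10, were called for model against control.

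Without model 1, model 2 and HPYD 2, the median of model over control was 1.16 and that of HPYD over model -0.77, where the HPYD arm is HPYD 1 and the array labelled HPYD 3. Without that array also, the medians were 1.16 and 0.03. These fits, both chosen after seeing the data, have 1 model array, assumed to vary like the other groups, as is the single HPYD array of the second. The unadjusted Student-Newman-Keuls test gave 287 genes between model and control, 137 between HPYD and model and 241 between HPYD and control, with 4, 0 and 4 of the 10, and 0 genes after Benjamini-Hochberg adjustment. The cause of these shifts was not tested.

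With a replicate block, 0 genes and 0 of the 10 were called, and the medians were 1.00, -0.07 and 0.84. Deviations of same-numbered arrays from their group means correlated between -0.32 and 0.18. With 3 arrays per group, these values cannot settle whether the numbers pair the samples.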

Other observations

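Measured from the control mean, the median of 10 astrocyte genes was 0.14, 0.17 and 0.17 in the HPYD arrays and 0.25, 0.21 and 0.09 in the model arrays. Gfap, the intermediate filament gene of reactive astrocytes, was 10.47, 10.88 and 9.65 in the HPYD arrays, 10.65, 10.07 and 10.44 in the model arrays and 9.58, 9.57 and 9.34 in the control arrays. Its model-to-control log2 fold change was 0.89 (standard error 0.29, limma's adjusted p = 0.859, higher in 3 of 3 model arrays). Without the array labelled HPYD 3 the standard error was 0.17 and limma's adjusted p = 0.603. S100b, a calcium-binding protein of astrocytes, was 10.12, 10.72 and 10.84 in the HPYD arrays, 10.19, 11.05 and 10.12 in the model arrays and 9.79, 9.84 and 10.11 in the control arrays, so its highest values were in model 2 and the array labelled HPYD 3.

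Gad2, an enzyme that makes GABA in inhibitory neurons, was the 1 of 10 neuron genes at an unadjusted p under 0.05 for model against control, with a log2 fold change of -0.54 (standard error 0.20). The median of 11 lymphocyte genes lay between -0.03 and 0.22 relative to the control mean in the HPYD and model arrays. Cd3d, a chain of the T cell receptor complex, stayed between 4.81 and 5.04 on all arrays. Csf3r, the receptor of granulocyte colony-stimulating factor, was 7.05, 7.43 and 6.20 in the HPYD arrays, 7.57, 7.70 and 7.21 in the model arrays and 6.67, 6.45 and 6.69 in the control arrays, so it was above every control array also in HPYD 1 and model 3, where the granulocyte list as a whole was not.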
